A study of Arabidopsis thaliana with 12 samples.

Results

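Seedlings that had received both the synthetic auxin NAA (1-naphthaleneacetic acid) and the respiratory inhibitor antimycin A were set against seedlings that had received neither, in the Arabidopsis thaliana line Col:LUC of the ecotype Col-0. The combined group held 3 arrays and the untreated group 3, that is 6 of the 12 arrays of the series, and they were chosen by their sample titles alone. In the combined group, seedlings had grown for 10 days on B5 medium, were moved to fresh plates with 4.5 µM NAA in the medium for 3 days, and had been treated with 50 µM antimycin A for 3 hours. The antimycin A group on B5 had the same dose and duration without NAA, the NAA group had the auxin alone, and the untreated group had been moved to fresh B5 plates without either agent. Each group is a biological triplicate of whole seedlings (80 mg) of a single line per the labels, so that shoot, root and every other tissue enter 1 value, and fewer cells of a type and less RNA per cell cannot be told apart. Whether the antimycin A solvent was given to seedlings without the inhibitor is not stated in the labels.

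Antimycin A blocks complex III of the mitochondrial respiratory chain, and plant cells answer the loss of electron flow with a change of nuclear transcription called mitochondrial retrograde signalling, which is known for raising alternative respiratory enzymes, glutathione transferases and glycosyltransferases. NAA enters cells and acts through the auxin receptors, which lead to the breakdown of Aux/IAA repressors, and auxin is known for starting lateral roots, loosening cell walls and raising the GH3 enzymes that inactivate it. The net comparison holds both actions at once and does not separate them, and the levels in both singly treated groups are therefore given beside the net change where they bear on it.

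Transcripts were read on Affymetrix ATH1 arrays, on which each transcript is read by a set of short probes, and the values are linear intensities as the authors deposited them. Median intensities were 38.8 to 39.6 on the 3 combined arrays and 35.2 to 36.2 on the 3 untreated arrays. Over all probe sets, arrays within a group correlated at 0.990 to 0.997 and arrays of the combined and untreated groups with each other at 0.927 to 0.934. Fold changes are differences of group means of log2(intensity + 16), a scale that understates the change of dim transcripts, and 5773 of the 13356 genes had means below 16 in both groups. A gene was called at an adjusted p below 0.05 in limma's moderated test of all 12 arrays, with Benjamini-Hochberg adjustment over 22746 probe sets, and every adjusted p below comes from that fit.

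Differences ran through much of the transcriptome. Of 22746 probe sets 7573 were called (33.3%), 3902 higher (17.2%) and 3671 lower (16.1%) in seedlings with NAA and antimycin A. At least 2-fold changes were called for 2683 probe sets (11.8%), 1365 higher (6.0%) and 1318 lower (5.79%). This even split of 51.5% higher to 48.5% lower depended on the scaling: with every array centred on its median, which moved the median of all changes to -0.09, 24.1% of the calls were higher and 75.9% lower. Counted once per gene, 3888 of 13356 genes were called (29.1%), 2015 higher (15.1%) and 1873 lower (14.0%), and the arrays of the 2 groups did not overlap at 42.9% of genes. The median change over all genes was -0.00088. With median centring 13.2% of genes were called higher and 50.9% lower. The count of each gene list below is to be read against the 15.1% and 14.0% of all genes, and its count with median centring against 13.2% and 50.9%. The lists were chosen with earlier results of these data known, so an excess over these shares is not independent evidence. A list near these shares shows nothing particular to it. The shares include the 5773 genes with means below 16 in both groups. Among probe sets with a mean value of at least 30, 7028 of 12384 were called. A list of brighter genes may thus exceed the shares without showing anything particular to it.

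**Figure D1:**
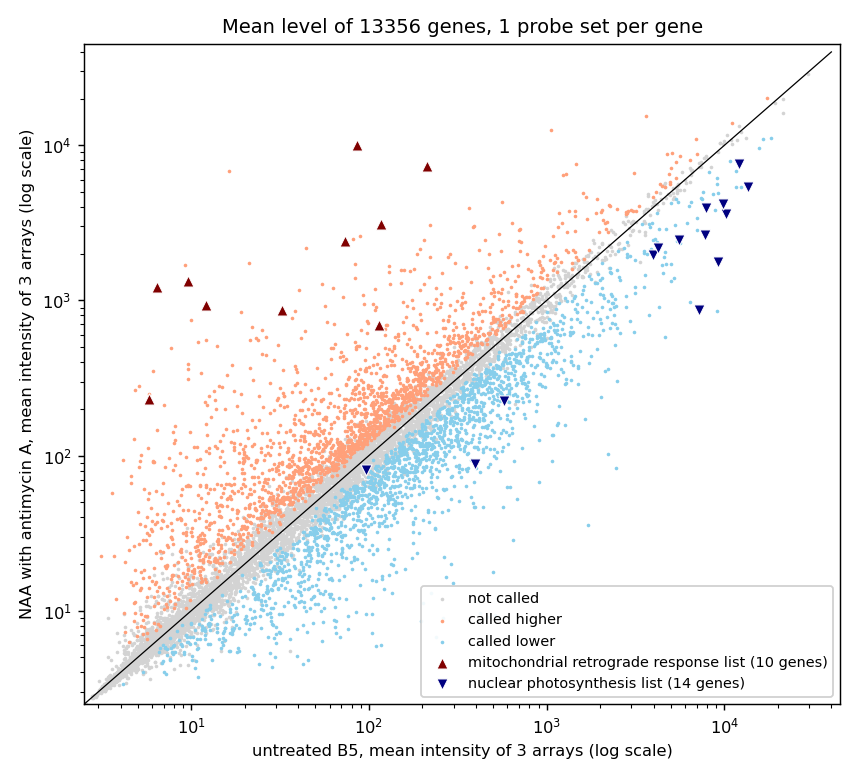
Mean intensity of each of 13356 genes over 3 arrays of NAA with antimycin A (vertical, log scale) against 3 untreated arrays (horizontal, log scale), with called genes in colour and the diagonal marking equal levels. The 10 retrograde genes (triangles pointing up) lie above the diagonal, and 13 of the 14 nuclear photosynthesis genes (triangles pointing down) are called lower.

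The largest rises held members of the retrograde list and of the GH3 list. GH3.3, an enzyme that joins auxin to amino acids and so removes it, had 6041.5, 6366 and 8034 intensity units on the combined arrays and 10.97, 12.7 and 25.6 on the untreated arrays. Its net change of 7.74 ± 0.20 (log2 ± SE, adjusted p = 3.95e-08) was the largest of all genes tested. AT2G41730, a member of the retrograde list, had 10386, 10071 and 9899.9 units against 66.1, 85.6 and 105 (log2 change 6.66 ± 0.13, adjusted p = 1.77e-08), although its probe set may also read similar transcripts. BGLU28, a β-glucosidase of the family that cleaves glucosinolates and other glucosides, had 1721, 1651 and 1671 units against 7.23, 11.9 and 8.41 (log2 change 6.08 ± 0.17, adjusted p = 6.22e-08). The largest rises were named only among genes whose groups do not overlap, so their separation follows from that rule.

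WES1, also called GH3.5 and active on auxin and salicylic acid, gave 2355, 2033 and 2183 units in seedlings with both agents, against 35.5, 47.2 and 49.3 in untreated seedlings, a log2 change of 5.21 ± 0.15 (adjusted p = 7.24e-08). AT5G42830 reached 1914, 1428.5 and 1876 units against 23.7, 16.2 and 23.4 (log2 change 5.56 ± 0.17), and AT5G39580 747, 721 and 784 units against 8.99, 11.6 and 9.49 (log2 change 4.88 ± 0.18). AT2G19970 stood at 2817, 2441 and 2223 units against 88.9, 64.9 and 90.4 (log2 change 4.69 ± 0.14), at 15.1 ± 4.06 with antimycin A alone and at 7783 ± 848 with NAA alone (mean ± SD, n = 3 each). It was thus high on both NAA media and low on both media without NAA. The other 5 of the 12 largest rises belong to the retrograde list described next.

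**Figure D2:**
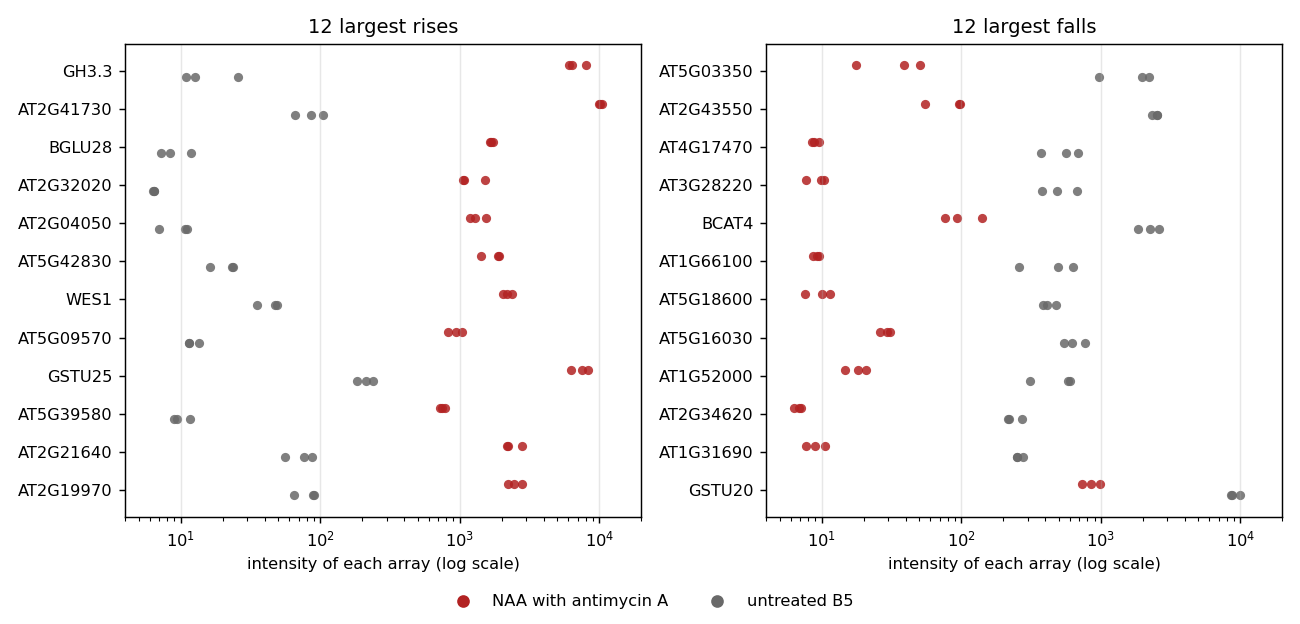
Intensity on each array (log scale, 1 point per array) of the 12 genes with the largest net rise and the 12 with the largest net fall among called genes whose groups do not overlap. Seedlings with NAA and antimycin A are drawn above untreated seedlings for each gene; GH3.3 spans 6041.5 to 8034 against 10.97 to 25.6 units and AT5G03350 spans 17.6 to 50.6 against 976 to 2205 units.

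All 10 measured genes of the mitochondrial retrograde list were called higher, against 15.1% of all genes, with a median log2 change of 4.89. AT2G32020 had 1524, 1057.5 and 1075 units against 6.43, 6.4 and 6.34 in untreated seedlings, where all 3 arrays lay near the lower end of the scale (log2 change 5.76 ± 0.13). AT2G04050 had 1283.5, 1193 and 1550.00 units against 7.01, 11.1 and 10.7 (log2 change 5.72 ± 0.18), and AT2G21640 2231.5, 2166 and 2804 units against 87.2, 55.5 and 76.8 (log2 change 4.77 ± 0.19). AT5G09570 gave 823, 935 and 1031 units against 13.5, 11.4 and 11.5 (log2 change 5.07 ± 0.20). Each of these rose more than 16-fold on this scale. The smallest rise of the list belonged to NDB2, an NAD(P)H dehydrogenase on the outer face of the inner mitochondrial membrane that feeds electrons past complex I, with 734, 657 and 685 units against 104, 119 and 117 (log2 change 2.45 ± 0.20, adjusted p = 1.70e-05). The list was drawn from genes known to respond to antimycin A and similar inhibitors, so its direction is not independent evidence.

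Within this list the level with both agents lay above or below that with antimycin A alone, depending on the gene. GSTU25, a tau-class glutathione transferase, averaged 7347 ± 1056 units with both agents, 2834 ± 782 with antimycin A alone and 212 ± 28.8 in untreated seedlings. AT2G04070 averaged 232 ± 32.6 units with both agents, 527 ± 112 with antimycin A alone and 5.76 ± 1.502 in untreated seedlings. The test of departure from the sum of both single effects called AT2G04070 (log2 -1.07 ± 0.21, adjusted p = 0.0149), AT5G51440 (log2 -1.35 ± 0.26, adjusted p = 0.0143) and AT5G43450 (log2 -1.34 ± 0.33, adjusted p = 0.0347), all below that sum. It did not call GSTU25 (adjusted p = 0.0943).

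Other respiratory genes differed by member. NDB4, a relative of NDB2, had 82.1, 81.5 and 141 units against 5.45, 4.91 and 5.36 (log2 change 2.43 ± 0.16), with NAA and antimycin A replicate 3 the highest. Its untreated values lay below the pseudocount of 16, where this scale understates a change. NDC1, the plastid member of the family, was lower at 64.4, 65.9 and 54.2 units against 95.8, 91.3 and 79.9 (log2 change -0.44 ± 0.11, adjusted p = 0.0101). Of the 7 measured genes of the cytochrome pathway 2 were called higher and none lower, or 1 and 1 with median centring, among them CYTC-1, a cytochrome c, at 7775, 8297 and 7991 units against 6436, 6149 and 6637 (log2 change 0.32 ± 0.06). SDH1-1, the flavoprotein subunit of complex II, was higher by 0.38 ± 0.11 (adjusted p = 0.0259), a call that was lost under 5 of 16 alternatives.

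Of 16 measured genes of the mitochondrial genome 8 were called higher and 0 lower, with a median log2 change of 0.44, and with median centring 7 were called higher and 3 lower. cox1, a core subunit of complex IV, had 311, 312 and 295 units against 101, 115 and 128 (log2 change 1.31 ± 0.15, adjusted p = 1.49e-04). ccb452, which is needed to attach heme to cytochrome c, had 111, 102 and 90.8 units against 35.2, 33.1 and 44.2 (log2 change 1.14 ± 0.15), and cox2 73.8, 95.04 and 65.4 against 31.6, 31.3 and 49.5 (log2 change 0.82 ± 0.14). No group overlapped in these. The probe set of ccb452 may also read similar transcripts. nad4, a subunit of complex I, had 209, 326 and 389.6 units against 199, 203 and 219 and was not called (adjusted p = 0.21), with replicate 1 of the combined group inside the untreated range. The array's own control for 25S rRNA moved with this list, at 12030.00 ± 317 units in the combined group and 5384.5 ± 347 in the untreated group (SD, n = 3 each), and its part in the organelle values was not tested.

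Genes of central carbon metabolism were mixed. Of 16 measured genes of the citric acid cycle and citrate lyase 5 were called higher and 2 lower (median 0.13), and with median centring 3 and 4. ICL, isocitrate lyase, the first enzyme of the glyoxylate cycle that turns stored fat into sugar, had 31.6, 27.2 and 30.98 units against 4.34, 4.3 and 4.35 (log2 change 1.17 ± 0.03, adjusted p = 4.63e-08). It stood at 4.35 ± 0.12 with antimycin A alone and at 4.33 ± 0.12 with NAA alone, so that it left the lower end of the scale with the combination and on no other array. Its departure from the sum of both single effects was 1.17 ± 0.04 (adjusted p = 9.61e-06). cICDH, the cytosolic isocitrate dehydrogenase, had 9906, 8762 and 8216 units against 5748, 4638 and 4822 (log2 change 0.82 ± 0.10). ACLB-1, a subunit of ATP-citrate lyase, was lower at 394, 443 and 547 against 823, 720.3 and 666 (log2 change -0.66 ± 0.15).

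Among 9 measured genes of branched-chain amino acid breakdown and starvation 2 were called higher and 1 lower, with a median of 0.07 that was -0.02 with median centring. IVD, isovaleryl-CoA dehydrogenase, which passes electrons from leucine breakdown to the respiratory chain, had 160.1, 177 and 193 units against 57.4, 56.5 and 57.8 (log2 change 1.39 ± 0.07, adjusted p = 7.31e-07). MCCA, a subunit of methylcrotonyl-CoA carboxylase in the same pathway, had 184, 179.7 and 165 units against 96.3, 82.8 and 107 (log2 change 0.79 ± 0.13). Its partner subunit MCCB was called lower, at 189, 198 and 204 units against 253, 288 and 282 (log2 change -0.45 ± 0.13, adjusted p = 0.0243), although this call was lost under 5 of 16 alternatives. IVD averaged 67.7 ± 3.91 with antimycin A alone and 64.02 ± 5.18 with NAA alone, and both IVD and MCCA exceeded the sum of the single effects, by 1.08 ± 0.09 and 1.43 ± 0.18 on the log2 scale (adjusted p = 3.99e-04 and 0.00222).

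Autophagy genes came next, with 5 of 11 measured called higher and 0 lower (median 0.19), or 5 and 1 with median centring. ATG8E, a ubiquitin-like protein that coats the forming autophagosome, had 1325, 1484 and 1677.5 units against 301, 201 and 273 (log2 change 2.47 ± 0.22, adjusted p = 2.71e-05). ATG8H had 434, 368 and 347 units against 142, 129 and 126 (log2 change 1.42 ± 0.13). ATG8G had 182, 236 and 208 units against 108, 99.4 and 134 (log2 change 0.79 ± 0.13). All 5 called genes encode ATG8 proteins, the other two being APG8A and ATG8B. ATG8E averaged 653 ± 101 with antimycin A alone and 224 ± 66.9 with NAA alone, and it exceeded the sum of both by 1.397 ± 0.31 (adjusted p = 0.0249).

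Of 9 measured GH3 and auxin-inactivating genes 4 were called higher and 1 lower (median 0.34), or 4 and 3 with median centring. Beside GH3.3 and WES1 these were GH3.1, at 10.3, 28 and 23.8 units against 4.2, 4.21 and 4.24 (log2 change 0.83 ± 0.25), and AT1G14130, at 295.5, 229 and 226 against 58.9, 92.8 and 97.96 (log2 change 1.44 ± 0.18). The neighbouring AT1G14120 was lower, at 93.2, 60.99 and 96.7 units against 388, 377 and 319 (log2 change -1.94 ± 0.14, adjusted p = 6.36e-06). GH3.3 was high with either agent, at 1279.7 ± 284 with antimycin A alone and 3003 ± 242 with NAA alone, and the combination lay below the sum of these log2 effects by a departure of -4.16 ± 0.28 (adjusted p = 1.21e-04). That sum lies above the highest intensity on any array, so the direction of this departure was fixed in advance. WES1 averaged 164 ± 14.8 with antimycin A alone and 1617 ± 334 with NAA alone (departure -1.14 ± 0.22, adjusted p = 0.013).

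Few auxin-signalling genes were measured under a gene name, and some of these were dim. The lists held 0 measured SAUR genes and 1 measured gene of auxin transport and response factors. Of the 22746 probe sets, 8730 had no gene name here, so unlisted genes were not shown to be undetected. Of 7 measured Aux/IAA repressor genes 2 were called higher and none lower, or 2 and 3 with median centring, and 4 lay below 16 units in both groups. IAA29 had 84.3, 75.8 and 94.05 units against 5.15, 5 and 5.14 (log2 change 2.25 ± 0.10), with 5.45 ± 0.46 on antimycin A alone and 29.6 ± 6.72 on NAA alone. IAA30 had 85.2, 77.4 and 80.8 units against 7.49, 5.72 and 10.4 (log2 change 2.03 ± 0.08), with 11.8 ± 1.73 on antimycin A alone and 14.3 ± 1.75 on NAA alone. Both were highest with the combination and exceeded the sum of the single effects, by 1.13 ± 0.14 and 1.46 ± 0.11 (adjusted p = 0.002 and 1.83e-04).

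Lateral root regulators were called higher in 3 of 4 measured cases, also with median centring. LBD29, a transcription factor that auxin response factors switch on when a lateral root starts, had 119, 111 and 104 units against 5.73, 5.63 and 5.68 (log2 change 2.55 ± 0.10, adjusted p = 3.33e-07). Its relative LBD16 had 96.1, 97.5 and 89.9 units against 11.1, 11.3 and 11.2 (log2 change 2.02 ± 0.11). The pair differed in the remaining groups: NAA alone gave 259 ± 45.8 for LBD29 and 37.5 ± 7.08 for LBD16, so that the level with both agents lay below that with NAA alone for LBD29 and above it for LBD16. The departure from the sum of single effects was -1.13 ± 0.15 for LBD29 and 1.25 ± 0.15 for LBD16 (adjusted p = 0.00221 and 0.00184). PUCHI, which limits the early divisions of the primordium, reached 15.9, 17.1 and 16.5 units against 8.06, 9.45 and 10.3, close to the pseudocount (log2 change 0.36 ± 0.05).

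Among wall-loosening genes the largest changes ran both ways. Of 19 measured expansins 5 were called higher and 7 lower (median -0.01), against 15.1% and 14.0% of all genes, or 3 and 12 with median centring. Of 10 measured XTH genes, whose enzymes cut and rejoin xyloglucan, 4 were called higher and 2 lower (median 0.13), or 4 and 3 with median centring. XTH18 had 734, 736 and 843 units against 47.7, 29.8 and 33.7 (log2 change 3.902 ± 0.21, adjusted p = 1.36e-06). XTH19 had 1065, 729 and 1038 units against 340.4, 209.9 and 150.3 (log2 change 1.996 ± 0.28), and XTH20 495, 390.3 and 402 against 108, 115 and 97.7 (log2 change 1.85 ± 0.18). These 3 closely related genes rose, while XTH32 was lower at 88.5, 82.4 and 75.3 units against 317, 361 and 373 (log2 change -1.901 ± 0.19). EXPA15, an α-expansin, was lower at 36.4, 33.97 and 30.02 units against 279, 233 and 197 (log2 change -2.34 ± 0.22), and EXPB3, a β-expansin, at 104, 109 and 109 against 593, 601 and 499 (log2 change -2.23 ± 0.26). Both lay below every untreated array. The expansin-like genes EXLA3 and EXLA1 were higher, at 159, 166 and 154 against 25.2, 57.4 and 32.5 units (log2 change 1.73 ± 0.20) and 696, 719 and 663 against 186, 160.4 and 183 units (log2 change 1.88 ± 0.32). Of 15 measured GH9 endoglucanases, which trim cellulose, 0 were called higher and 5 lower, or 0 and 13 with median centring, against 14.0% and 50.9% of all genes called lower. GH9C2 fell by the most, at 45.6, 16.4 and 40.8 units against 287, 241 and 179 (log2 change -2.36 ± 0.40).

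Photosynthesis genes of the nucleus were lower almost throughout: 13 of 14 measured were called lower and 0 higher, against 14.0% and 15.1% of all genes, with a median log2 change of -1.27, and with median centring all 14 were called lower. LHCB4.2, a minor antenna protein of photosystem II, had 1001.5, 779 and 825 units against 7608, 6796 and 7225 (log2 change -3.04 ± 0.19, adjusted p = 3.38e-06). PSAN, a photosystem I subunit on the lumen side, had 2286, 1686 and 1299 units against 9083, 8891 and 9642 (log2 change -2.42 ± 0.18), and PSBY, of photosystem II, 3031, 2503 and 2439.9 against 7336, 8155 and 7833 (log2 change -1.55 ± 0.11). Every combined array of these lay below every untreated one. NdhL of the chloroplast NADH dehydrogenase-like complex had 82.2, 91.98 and 92.01 units against 405, 371 and 410.3 (log2 change -1.97 ± 0.09). PRK, the Calvin cycle kinase that remakes the acceptor of carbon dioxide, had 3099.7, 2162.5 and 2062.5 units against 5769, 5398 and 5605 (log2 change -1.21 ± 0.14). The exception was LHCB4.3, at 81.6, 87.7 and 72.4 units against 89.2, 97.5 and 103 (log2 change -0.22 ± 0.12, adjusted p = 0.211).

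For LHCB4.2 and PSAE-1 both singly treated groups lay between the combined and the untreated level. LHCB4.2 averaged 868 ± 118 with both agents, 2133 ± 582 with antimycin A alone, 5398 ± 479 with NAA alone and 7209.7 ± 406 untreated. PSAE-1, a photosystem I subunit that docks ferredoxin, averaged 5384 ± 569.6 with both, 11858 ± 835 with antimycin A alone, 10126 ± 234 with NAA alone and 13522 ± 752 untreated. The departure from the sum of single effects was below 0 for PSAE-1 (-0.72 ± 0.11, adjusted p = 0.00524) and PSBW (-0.67 ± 0.09, adjusted p = 0.00251) and above 0 for NdhL (0.71 ± 0.13, adjusted p = 0.0125), so that the list did not depart one way.

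Of 11 measured genes of chlorophyll synthesis 7 were called lower and 1 higher (median -0.98), or 10 and 1 with median centring. PORB, which makes chlorophyllide in the light, had 582, 490.4 and 662 units against 4575, 4896 and 4517.5 (log2 change -2.99 ± 0.14, adjusted p = 6.13e-07). HEME1, a uroporphyrinogen decarboxylase, had 72.3, 74.8 and 86.7 units against 496, 398 and 366 (log2 change -2.21 ± 0.13), and CHLM, the magnesium protoporphyrin methyltransferase, 657, 661 and 521 against 2852, 2646 and 2302 (log2 change -2.06 ± 0.12). In all 3 the highest combined array lay far below the lowest untreated one. HEMA2, the glutamyl-tRNA reductase isoform known for roots, was the member called higher, at 96.3, 61.8 and 92.1 units against 36.7, 26.9 and 26.5 (log2 change 1.099 ± 0.19).

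From the plastid genome 37 of 69 measured genes were called lower and 1 higher, against 14.0% and 15.1% of all genes, with a median log2 change of -0.59. With median centring 48 were called lower and 1 higher. Ribosomal protein genes stood among the largest falls: rpl22 had 1465.5, 1176 and 1835 units against 4874, 4756 and 3983 (log2 change -1.61 ± 0.30) and rpl14 1449.5, 879 and 1334 against 4079, 3209 and 3249.9 (log2 change -1.54 ± 0.22). Neither overlapped between the groups. rpoC1, a subunit of the plastid RNA polymerase, had 322, 416 and 441 units against 1041, 846 and 1096 (log2 change -1.31 ± 0.20), and rbcL, the large subunit of Rubisco, 667, 579.6 and 731 against 1173, 1181 and 1312 (log2 change -0.88 ± 0.14). The plastid genes differed from the nuclear photosynthesis genes in their single-agent medians: on the plastid list the median log2 change was 0.13 with antimycin A alone and -0.68 with NAA alone, and on the nuclear list -0.57 and -0.59. These medians share their untreated arrays and are given as values. psaC, called higher, had 39.9, 277 and 300.4 units against 32.1, 37.7 and 30.6 (log2 change 1.81 ± 0.59, adjusted p = 0.0432), with replicate 1 of the combined group near the untreated arrays.

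Thiol and ascorbate enzymes went both ways. Of 16 measured genes 5 were called higher and 6 lower (median -0.12), or 4 and 8 with median centring. TAPX, the thylakoid ascorbate peroxidase, had 188, 136 and 179 units against 686, 567 and 612 (log2 change -1.805 ± 0.12). TRXF2, a chloroplast thioredoxin, had 147, 161 and 147 units against 808, 598 and 502 (log2 change -1.94 ± 0.16). NTRC, a chloroplast thioredoxin reductase, had 354, 277 and 344 units against 732, 734 and 798 (log2 change -1.18 ± 0.11). All 3 act in the chloroplast and were called lower. Glutathione reductases went apart: GR, the organelle-targeted isoform, was lower at 319, 219 and 223 units against 581, 565 and 517 (log2 change -1.100 ± 0.17), and GR1, the cytosolic isoform, was higher at 749, 741 and 791 against 520.4, 499 and 502 (log2 change 0.57 ± 0.12). GRX480, a glutaredoxin of the salicylic acid response, had 243, 228 and 212 units against 14.3, 38.6 and 38.7 (log2 change 2.44 ± 0.28).

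**Figure D3:**
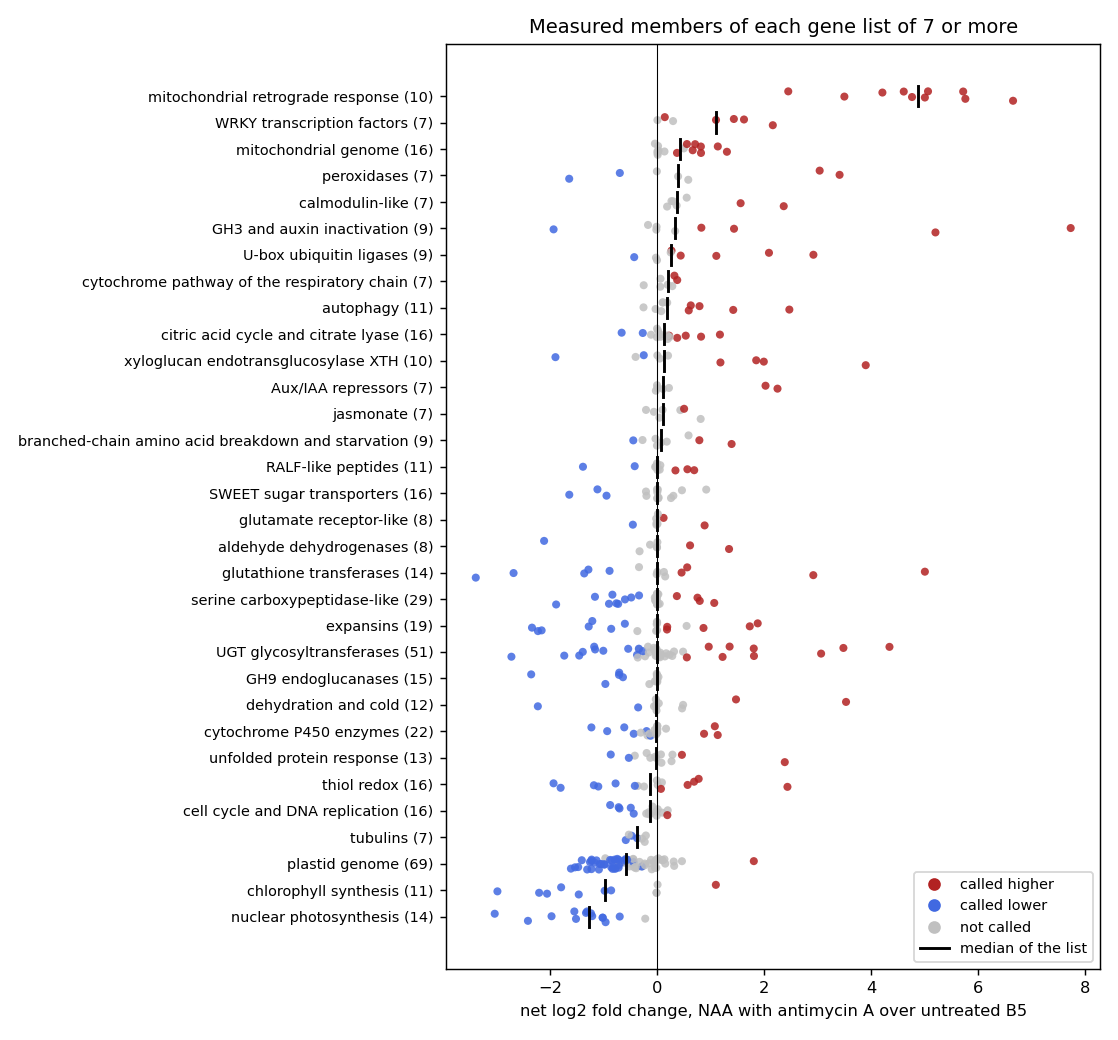
Net log2 fold change (horizontal) of every measured member of the gene lists with 7 or more measured members, 1 point per gene, coloured by the call, with a bar at the list's median and the number of members in brackets. Medians run from -1.27 for nuclear photosynthesis to 4.89 for the retrograde list, and many lists hold genes called in both directions.

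Detoxification genes held large changes in both directions. Of 14 measured glutathione transferases 4 were called higher and 5 lower (median -0.0025), or 4 and 6 with median centring. Of 51 measured UGT glycosyltransferases 9 were called higher and 11 lower (median -0.01), against 15.1% and 14.0% of all genes, or 9 and 27 with median centring. In the tau class of glutathione transferases GSTU25 had 7477, 6232 and 8331 units against 241, 213 and 183 (log2 change 5.01 ± 0.19) and GSTU22 2884, 3121 and 3052 against 457, 378 and 329 (log2 change 2.92 ± 0.17). The groups did not overlap for either. GSTU20 and GSTU18 were among the falls, at 729, 989 and 845 against 8619, 8678 and 9907.5 units (log2 change -3.39 ± 0.18) and 45.1, 49.7 and 44.05 against 457, 399.9 and 309.6 units (log2 change -2.68 ± 0.15). These groups did not overlap either. UGT73B4, a stress-induced glycosyltransferase, had 556, 493 and 624 units against 14.9, 10.4 and 11.2 (log2 change 4.35 ± 0.15). Its close relative UGT73B5 had 625, 406 and 509 units against 34.4, 28.1 and 29.6 (log2 change 3.48 ± 0.22), and UGT87A2 1513, 1469 and 1834 against 156, 154 and 228 (log2 change 3.07 ± 0.18). UF3GT, a flavonoid 3-O-glucosyltransferase of anthocyanin synthesis, was lower at 21.3, 17.8 and 27.1 units against 112, 276 and 403 (log2 change -2.72 ± 0.40).

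UGT73D1 left the lower end of the scale with the combination alone, at 35.4, 32.04 and 40.7 units against 6.68, 6.23 and 5.75, with 6.82 ± 0.201 on antimycin A and 5.99 ± 0.53 on NAA (departure 1.201 ± 0.07, adjusted p = 6.77e-05). AT5G52050, the efflux carrier DTX50 known to export abscisic acid, had 165, 117 and 101 units against 4.24, 6.34 and 3.68 (log2 change 2.77 ± 0.16) and exceeded the sum of single effects by 1.43 ± 0.23 (adjusted p = 0.00619). Of 22 measured cytochrome P450 genes 3 were called higher and 6 lower (median -0.01), against 15.1% and 14.0% of all genes, or 3 and 18 with median centring. CYP71B6 was among the higher, at 762, 779 and 953 units against 321, 377 and 463 (log2 change 1.08 ± 0.15).

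In sulfur metabolism, glucosinolate genes were called lower in 3 of 5 measured cases and higher in 1 (median -1.18), or 4 and 1 with median centring. BCAT4, the aminotransferase that starts the chain extension of methionine for glucosinolates, had 76.6, 92.8 and 139.6 units against 1832, 2229.7 and 2603 (log2 change -4.25 ± 0.22, adjusted p = 1.03e-06). UGT74B1, a glucosyltransferase of the core pathway, had 392, 339 and 423 units against 917, 902 and 840.2 (log2 change -1.18 ± 0.14). BGLU28 was the member that rose, and its level depended on both agents: 1681 ± 35.7 units with both, 230.2 ± 28.1 with antimycin A alone, 17.7 ± 9.18 with NAA alone and 9.19 ± 2.45 untreated. Its departure from the sum of single effects was 2.402 ± 0.24 (adjusted p = 7.93e-04), and that of BCAT4 was -1.41 ± 0.30 (adjusted p = 0.0212).

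Several families of stress regulators were read. Of 7 measured WRKY transcription factors 5 were called higher and 0 lower (median 1.102), or 4 and 1 with median centring. WRKY6, known from senescence and phosphate stress, had 268, 275 and 252 units against 47.8, 38.9 and 54.3 (log2 change 2.16 ± 0.15). WRKY53, a senescence regulator, had 468, 479.99 and 733 units against 179, 146 and 178 (log2 change 1.62 ± 0.22). WRKY47 had 103, 80.98 and 75.8 units against 19.2, 23.4 and 22.4 (log2 change 1.44 ± 0.12). None of the 3 overlapped between the groups. STZ, the zinc finger repressor also called ZAT10, had 1131, 1267 and 1544 units against 422, 574 and 455 (log2 change 1.41 ± 0.27). ORA47, an activator of jasmonate synthesis, was lower at 14.7, 15.2 and 29.4 units against 162, 132 and 117 (log2 change -2.11 ± 0.16), and averaged 12.5 ± 1.95 with antimycin A alone and 26.5 ± 4.28 with NAA alone. Each agent thus left it near the level seen with both, and the departure was 2.15 ± 0.23 (adjusted p = 0.001). The sum of single effects lies below the lowest level this scale can hold, so a departure above it was fixed in advance.

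U-box ubiquitin ligases were called higher in 5 of 9 measured cases and lower in 1 (median 0.27), or 5 and 2 with median centring. PUB22, PUB23 and PUB24, which dampen immune signalling together, had 103, 84.5 and 74.8 against 8.83, 7.45 and 7.99 units, 253, 219 and 279.6 against 19.3, 22.1 and 15.7 units and 53.5, 40.9 and 78.9 against 16.6, 17.9 and 17.9 units, with log2 changes of 2.09 ± 0.22, 2.92 ± 0.21 and 1.11 ± 0.20. Of 7 measured calmodulin-like genes 2 were called higher and 0 lower, also with median centring, CML38 at 641, 644 and 683 units against 61.95, 129 and 179 (log2 change 2.37 ± 0.37) and CML42 at 314, 286 and 292 against 122, 87.7 and 67.2 (log2 change 1.56 ± 0.20). These proteins bind calcium. BZIP60, the transcription factor of the unfolded protein response, had 2582, 2275 and 2452 units against 483, 454 and 422 (log2 change 2.39 ± 0.13, adjusted p = 1.84e-06). The other 12 measured genes of that response did not follow it as a group: 1 of them was called higher and 2 lower, and with median centring the 13 genes had 2 higher and 4 lower. The lower included CRT1b, a calreticulin, at 832, 1064 and 1032 units against 1933, 1792 and 1636.5 (log2 change -0.87 ± 0.18).

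Of 5 measured heat shock genes 2 were called higher and 0 lower, or 1 and 1 with median centring. The 2 higher calls were AT5G48570, the co-chaperone ROF2, at 107, 122 and 122 units against 91.3, 92.6 and 89.5 (log2 change 0.31 ± 0.10, adjusted p = 0.0447) and Hsp70-2 at 147, 128 and 182 against 79.4, 104 and 96.5 (log2 change 0.62 ± 0.20, adjusted p = 0.0435), while 3 lay below 16 units in both groups. Neither call held with quantile normalization, under which 0 of the 5 were called. ROF2 averaged 306 ± 48.6 with antimycin A alone and 98.7 ± 9.29 with NAA alone, so that the combined level lay nearer to that of NAA (departure -1.36 ± 0.15, adjusted p = 0.001).

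Defence genes gave single strong changes. PR-1-LIKE, a relative of the pathogenesis-related protein PR1, had 454, 307 and 345 units against 30.9, 16.7 and 16.96 (log2 change 3.36 ± 0.18), but 2861.5 ± 407 with NAA alone and 8.16 ± 0.28 with antimycin A alone. The combined level was thus above untreated and below NAA alone, with a departure of -2.297 ± 0.25 (adjusted p = 0.0011). Of 7 measured peroxidases 2 were called higher and 2 lower (median 0.39), or 2 and 3 with median centring. Prx37 had 1087, 1457 and 2042.5 units against 134, 83.1 and 171 (log2 change 3.41 ± 0.27), and AT5G64120, PRX71, 1012, 738 and 1085 against 86.6, 67.6 and 163 (log2 change 3.04 ± 0.34). Both spread widely within the groups without overlap. In the lower pair AT2G41480, PRX25, had 9, 9.17 and 7.92 units against 90, 52.2 and 47.5 (log2 change -1.64 ± 0.16).

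Of 12 measured dehydration and cold genes 2 were called higher and 2 lower (median -0.01), close to the 15.1% and 14.0% of all genes, or 2 and 5 with median centring. LTI30, a dehydrin that protects membranes in drying cells, had 15693, 10759 and 11140.00 units against 989.8, 1267 and 927 (log2 change 3.53 ± 0.16, adjusted p = 5.24e-07) and exceeded the sum of single effects by 1.19 ± 0.22 (adjusted p = 0.0124). COR15B, which protects chloroplast membranes in the cold, was lower at 693, 522 and 339 units against 1939, 2728.5 and 2595 (log2 change -2.23 ± 0.25). Of 8 measured aldehyde dehydrogenases 2 were called higher and 1 lower, or 2 and 2 with median centring. ALDH7B4, a stress-induced isoform, had 2753, 2916 and 3221 units against 988, 1246 and 1248 (log2 change 1.35 ± 0.15). ALDH11A3, a non-phosphorylating glyceraldehyde 3-phosphate dehydrogenase, had 308, 298 and 310.3 units against 1327, 1436 and 1363 (log2 change -2.11 ± 0.09).

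Of 16 measured genes of cell division 5 were called lower and 1 higher (median -0.14), against 14.0% and 15.1% of all genes, or 11 and 0 with median centring. Of 7 tubulins 3 were called lower and 0 higher (median -0.37), or 5 and 0 with median centring, but the calls of TUA6 and TUB5 were lost under 8 and 5 of 16 alternatives. PRL, the replication helicase subunit MCM7, had 79.98, 85.2 and 78 units against 149.6, 173 and 165 (log2 change -0.88 ± 0.11). HTB2, a histone H2B, had 382, 419 and 413 units against 746, 585 and 708 (log2 change -0.72 ± 0.10). AUR2, an aurora kinase, had 28.6, 24.9 and 21.98 units against 60.4, 44.2 and 49.04 (log2 change -0.70 ± 0.11). These changes were under 2-fold.

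Sugar transporters of the SWEET family were called lower in 3 of 16 measured cases and higher in 0, near the 14.0% of all genes called lower, or in 8 and 0 with median centring. SWEET4, one of the 3, lost its call under 6 of 14 alternatives. The other two were the vacuolar SWEET17 at 152, 114 and 136 units against 535, 422 and 400.1 (log2 change -1.64 ± 0.13) and SWEET16 at 48.1, 38.7 and 31.6 against 111, 95.1 and 105 (log2 change -1.12 ± 0.10). Both carry sugars across the vacuolar membrane. Of 29 measured serine carboxypeptidase-like genes 4 were called higher and 9 lower, against 15.1% and 14.0% of all genes, or 3 and 22 with median centring. Among the lower scpl31 stood at 7.76, 6.74 and 5.84 units against 81.7, 66.7 and 58.1 (log2 change -1.89 ± 0.09). Peptide genes of the RALF family were called higher in 3 of 11 measured cases and lower in 2, or in 3 and 5 with median centring, RALFL34, which acts in lateral root founder cells, at 362, 465 and 376 units against 971, 1140.2 and 1099.5 (log2 change -1.39 ± 0.13). RR16, a type-A response regulator of cytokinin signalling, was lower at 11.3, 11.2 and 10.02 units against 40.2, 36.5 and 36.5 (log2 change -0.9999 ± 0.06), and 5 of the 6 measured response regulators lay below 16 units in both groups. Of these 6 genes 0 were called higher and 2 lower, or 0 and 5 with median centring, and ARR15 lost its call under 9 of 14 alternatives.

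The remaining lists held few calls. Of 7 measured jasmonate genes 1 was called higher and 0 lower, or 1 and 1 with median centring, the defensin gene PDF1.4 at 27.9, 22.6 and 30.1 units against 16.7, 15.1 and 10.8 (log2 change 0.50 ± 0.08), and of 3 fermentation genes 1, PPDK, pyruvate orthophosphate dikinase, at 331, 310.5 and 305 units against 111, 138 and 239 (log2 change 0.95 ± 0.23). EIN3, the central transcription factor of ethylene signalling, had 533, 423 and 533 units against 341, 334 and 319 (log2 change 0.55 ± 0.16, adjusted p = 0.0277), a call that was lost under 5 of 16 alternatives. Of 8 glutamate receptor-like genes 2 were called higher and 1 lower, or 1 and 5 with median centring, and 1 of the 2, ATGLR1.2, had 5.58, 8.07 and 6.81 units against 5.23, 4.58 and 5.1 and lost its call under 8 of 14 alternatives. GLR2.7 was higher, at 28.96, 54.6 and 38.1 units against 11.2, 11.1 and 20.8 (log2 change 0.89 ± 0.18). WAG2, a kinase that directs auxin transporters, had 33.2, 39.2 and 23.52 units against 12.1, 7.25 and 8.75 (log2 change 0.91 ± 0.16). The 4 measured YUCCA genes of auxin synthesis lay below 16 units in both groups, and none was called, while with median centring all 4 were called lower.

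The largest falls held mostly genes printed here by locus code. AT5G03350 had 17.6, 38.7 and 50.6 units against 976, 1962 and 2205 (log2 change -5.04 ± 0.34, adjusted p = 4.69e-06), and AT2G43550 55.2, 97.96 and 96.2 against 2315, 2543 and 2514 (log2 change -4.67 ± 0.18). AT4G17470, AT3G28220, AT1G66100 and AT5G18600 came to the lower end of the scale on all 3 combined arrays, AT4G17470 at 8.77, 9.62 and 8.53 units against 373, 561 and 687 and AT1G66100 at 9.61, 9.16 and 8.68 against 636, 258 and 490.4, with log2 changes between -4.44 and -4.09 for the 4 genes. The values of AT1G66100 varied more between untreated seedlings than between treated ones. AT2G34620 had 7.07, 6.84 and 6.34 units against 274, 217 and 219.8 (log2 change -3.47 ± 0.11), and AT1G31690 7.64, 10.5 and 8.94 against 251, 277 and 250.4 (log2 change -3.46 ± 0.18). With the single agents AT2G34620 averaged 8.97 ± 2.71 units with antimycin A and 69.3 ± 9.38 with NAA, and AT1G31690 18.8 ± 8.42 with antimycin A and 21.4 ± 7.92 with NAA. Both departed from the sum of single effects, by 1.44 ± 0.15 and 2.45 ± 0.25 (adjusted p = 0.001 and 8.09e-04). In both genes that sum lies below the lowest level this scale can hold. A departure above the sum was therefore fixed in advance, and nothing is read from it.

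Of the 13356 genes, 663 were called with both agents and with neither agent alone, 428 higher and 235 lower. The departure from the sum of single effects was called in 79 of them, against 8.45% of all genes. For most of the 663 genes a departure was therefore not shown. Among the largest of these rises AT5G43520 had 120.3, 81.2 and 77.5 units against 4.15, 4.08 and 4.15, with 4.24 ± 0.02 on antimycin A and 10.5 ± 5.13 on NAA, and its departure from the sum of single effects was 2.03 ± 0.22 (adjusted p = 0.00109). AT1G12010 had 114, 162 and 168 units against 18.1, 11.03 and 17.6, with 18.99 ± 1.397 on antimycin A and 23.9 ± 3.62 on NAA (departure 1.87 ± 0.20, adjusted p = 0.001). AT1G80130 had 1351, 1219 and 1029.5 units against 84.4, 260.4 and 371, and its departure was not called (0.60 ± 0.64, adjusted p = 0.743). On the falling side AT2G37870 had 14.2, 75.98 and 48.8 units against 201, 964 and 549 and 1498 ± 609 with NAA alone (net log2 change -3.13 ± 0.63, departure -3.96 ± 0.89, adjusted p = 0.0249), with wide spread in every group. AT5G55450 and AT1G22330 also fell, and their departures were not called (adjusted p = 0.176 and 0.496).

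Other genes were called in opposite directions by NAA alone and by antimycin A added to NAA, and their net change was not called. EXPB2, a β-expansin, averaged 653 ± 193 with NAA alone but had 11.9, 25.4 and 13.7 units with both agents and 8.1, 5.57 and 4.96 untreated, a net log2 change of 0.55 ± 0.20 that was not called (adjusted p = 0.0596). AT3G29410 averaged 584 ± 158 with NAA alone and had 51.99, 64.7 and 42.8 units with both agents and 228, 60.8 and 108 untreated (net adjusted p = 0.0853). AT1G22690 fell to 382 ± 74.01 with NAA alone and had 1429, 1217 and 1075 units with both agents and 1466, 835 and 1241 untreated (net log2 change 0.10 ± 0.21, adjusted p = 0.842). Their groups overlapped except for EXPB2, whose 3 combined arrays all lay above the 3 untreated ones.

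**Figure D4:**
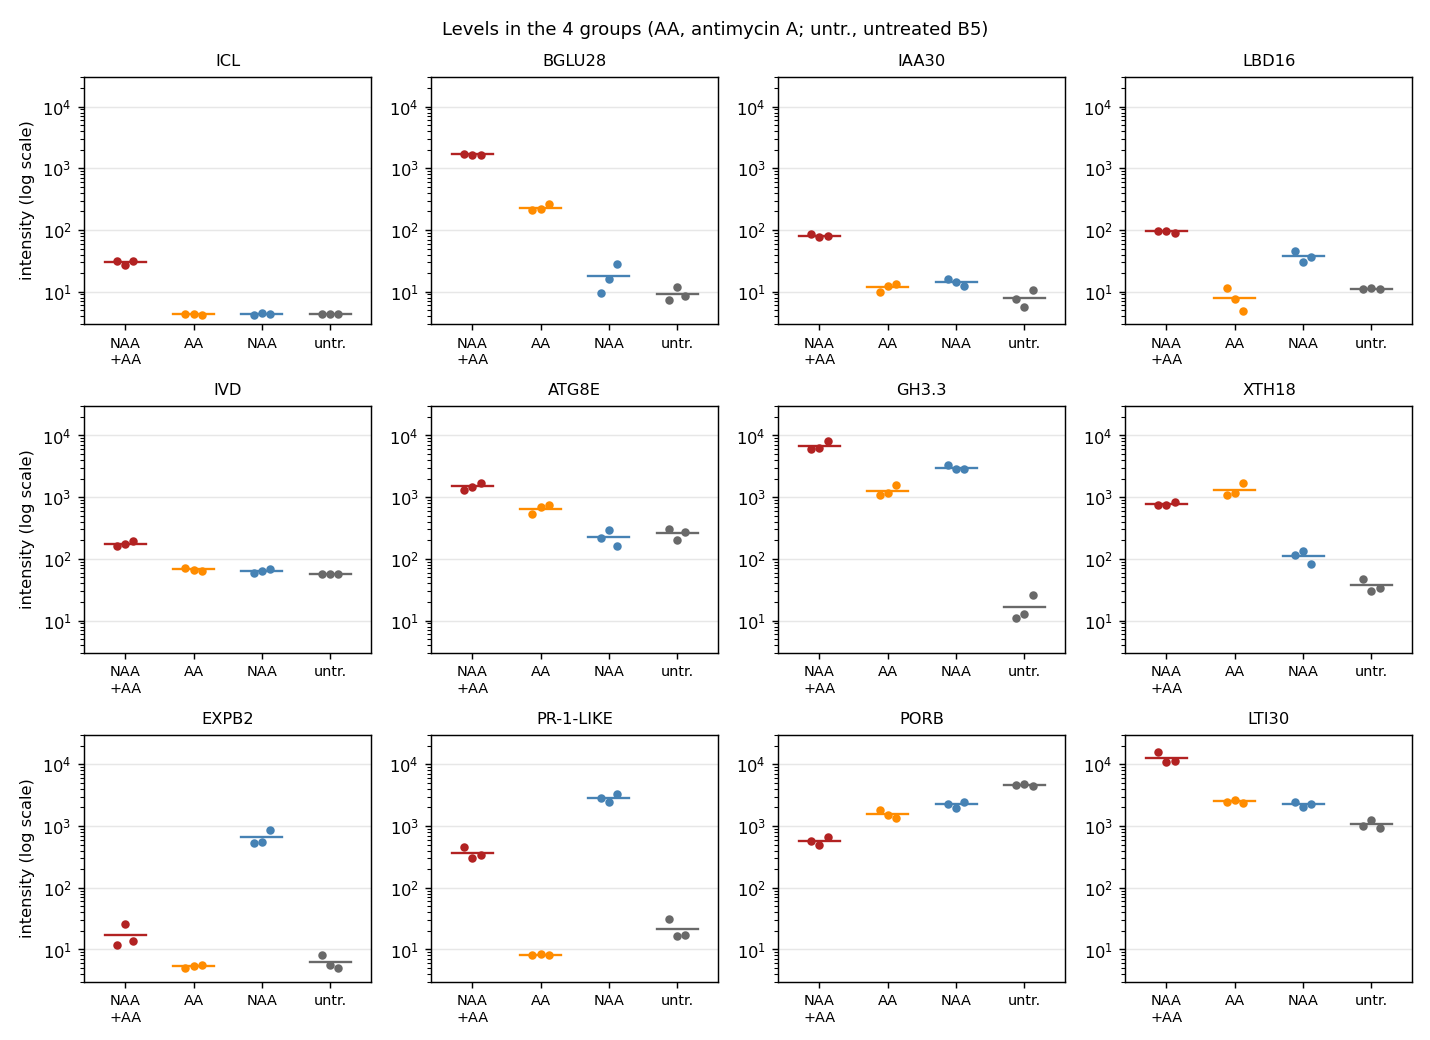
Intensity (log scale) of 12 genes on each array of the 4 groups, with a line at the group mean: NAA with antimycin A (NAA +AA), antimycin A on B5 (AA), NAA, and untreated B5. ICL, IAA30 and IVD are high with the combination alone, GH3.3 is high with either agent, EXPB2 and PR-1-LIKE are highest with NAA alone, and PORB is lowest with the combination.

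Over the named genes as a set, 46 of 163 departed from the sum of single effects, against 8.45% of all genes; the set was chosen partly by net change, and nothing is read from that share. The departures were above 0 in 28 genes, against 4.42% of all genes, and below 0 in 18, against 4.04%. Some of these directions were fixed by the range of the scale, as given below.

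Tissue markers moved with these results. Of 4 measured markers of the stomatal lineage 2 were called lower and 0 higher, or 4 and 0 with median centring, STOMAGEN, a mesophyll peptide that promotes stomata, at 101, 160.03 and 129 units against 546, 581 and 496 (log2 change -1.95 ± 0.26) and FMA, the guard cell regulator FAMA, at 17.5, 13.99 and 13.2 against 24.04, 40.5 and 24.3 (log2 change -0.55 ± 0.13). The 4 markers summed to 129.7 to 186.2 units on the combined arrays and 531.3 to 632.7 on the untreated arrays, mostly from STOMAGEN. The other 2 markers lay below 16 units in both groups and were not called, so the sum does not describe the list as a whole. Of 3 leaf and shoot markers 2 were called lower, or 3 with median centring, YAB5 at 55.3, 67.2 and 45.3 units against 81.4, 101 and 90.3 and YAB3 at 37.9, 34.3 and 29.7 against 54.99, 42.4 and 54.4, and the list summed to 79.9 to 106.8 units against 141.4 to 149.7. The root hair expansins EXPA7 and EXPA18 summed to 45.0 to 64.1 units against 124.4 to 201.6 and were both called lower. Their sum was 467.5 to 648.1 units with NAA alone and 20.69 to 21.24 with antimycin A alone. The net fall thus does not describe an amount of root hair tissue. BBM, the single measured root marker, lay below 16 units in both groups, no marker was listed at 0, and no xylem marker was analysed here. The part of tissue composition in the falls of photosynthesis, chlorophyll and wall genes was not tested.

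Neither reference gene was called, PEX4 at 408, 364 and 393 units against 349, 359.6 and 350.4 (adjusted p = 0.247) and GAPC2 at 11006, 10378 and 11233 against 12004, 11546 and 11692 (adjusted p = 0.468). The groups did not overlap in either, as at 42.9% of all genes, with PEX4 higher and GAPC2 lower in the combined group.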

How the data were processed

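Expression was measured on 12 Affymetrix ATH1 arrays, 3 per group, from 400 ng of total RNA each per the labels. The authors deposited linear intensity values for 22810 probe sets. Per the submitters' processing notes MAS5, RMA and Partek were used, with role, order and version not given in the sources used here, so that the normalization behind the deposited values is unknown. A shift common to most genes could be hidden by it. The number of arrays limits the precision.

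After removal of 64 control probe sets, 22746 were analysed as log2(value + 16) in limma 3.58.1 (R 4.3.3), with 1 mean per group (4 groups) over all 12 arrays and 8 residual degrees of freedom. The same fit gave both single-agent effects and the departure of the combination from their sum. Tests were two-sided. The fit was tested on simulated data. GEO's platform annotation paired 13513 probe sets with 1 gene, 503 with several and left 8730 unnamed here. Each of the 13356 genes was represented by its brightest probe set, and 13286 matched RefSeq (TAIR10.1) for symbols. Of the 2683 probe sets called at least 2-fold, 1383 have no single gene name and enter counts only.

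The members and the 54 gene lists were chosen with earlier results of these data known, and 51 lists had a measured member. Named were the 12 largest rises and 12 largest falls whose groups do not overlap, up to 3 members of each list by adjusted p, genes called with both agents and with neither alone, and genes with cancelling steps. Further list members were named after their values were seen. Alternatives changed the pseudocount, scaling, filter on dim probe sets, arrays in the fit, replicate block, variance model and array weights. Promoter motifs were not analysed here.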

Additional observations from a re-analysis of the deposited data

Results flagged for a closer look

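Of the 163 named genes, 46 passed the test of the difference between the antimycin A effect on NAA and on B5, which equals the departure of the combination from the sum of both single effects (limma, adjusted p below 0.05). Several of these have their levels above, and the log2 departures of all are given here. For AT2G34620, AT1G31690, ORA47, scpl31, EXPB1 and RR16 the sum of single effects lay at or below the lower end of the scale. For GH3.3 it lay above the highest intensity on any array. The direction of the departure was thus fixed in advance for these genes. The auxin genes that passed the test were GH3.3 (-4.16), WES1 (-1.14), IAA30 (1.46), IAA29 (1.13), LBD29 (-1.13), LBD16 (1.25) and PUCHI (-0.64). Wall genes were EXPB2 (-4.27), EXPA7 (-1.58), EXPB1 (0.69), XTH18 (-2.01), XTH20 (0.99) and XTH33 (-1.06). XTH33 averaged 43.9 ± 3.14 units with both agents, 58.99 ± 15.5 with antimycin A alone, 28.3 ± 2.35 with NAA alone and 10.3 ± 0.31 untreated, so that the combined level lay between those of the singly treated groups.

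Metabolic genes were BGLU28 (2.40), BCAT4 (-1.41), ICL (1.17), IVD (1.08), MCCA (1.43), ALDH7B4 (0.90), ALDH2C4 (-0.63), GSTU18 (0.89), UGT73D1 (1.20), AT5G52050 (1.43), scpl31 (1.64) and scpl42 (0.67). Photosynthesis genes were NdhL (0.71), PSBW (-0.67) and PSAE-1 (-0.72). Stress and signalling genes were AT5G48570 (-1.36), ORA47 (2.15), LTI30 (1.19), ATG8E (1.40), PR-1-LIKE (-2.30), RR16 (0.70), GLR2.7 (-1.27), GLR3.3 (0.56), RALFL18 (0.33) and RALFL22 (-1.14). GLR2.7, a glutamate receptor-like channel, averaged 40.5 ± 12.99 units with both agents, 119 ± 13.2 with antimycin A alone, 14.1 ± 3.39 with NAA alone and 14.3 ± 5.56 untreated. Locus codes were AT5G39580 (1.88), AT2G34620 (1.44), AT1G31690 (2.45), AT5G43520 (2.03), AT1G12010 (1.87), AT2G37870 (-3.96), AT1G22690 (1.17) and AT3G29410 (-1.97).

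Of the 64 control probe sets, which entered no comparison, 7 averaged at least 1.5-fold higher in the combined group, with no overlap between the 3 arrays of each group. The 25S ribosomal RNA control averaged 12030.00 ± 317 units with both agents and 5384.5 ± 347 untreated, a log2 difference of 1.16. Both 3' probe sets of glyceraldehyde 3-phosphate dehydrogenase were higher, by 0.75 (15399 ± 771 against 9155 ± 305) and by 0.73 (9739 ± 109 against 5883 ± 454). A further 4 sets read bacterial genes used as added standards, with log2 differences of 0.84 and 0.76 for dap, 0.62 for phe and 0.72 for thr. The brighter dap set averaged 681 ± 306 units with both agents and 352 ± 33.2 untreated, with a wide spread between the combined arrays. The part of these differences in the net changes was not tested.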

How the results depend on the processing

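The counts of probe sets called stayed within 1.5 times under the alternatives tried, apart from those given here. Median centring called 3472 higher and 10952 lower, a mean value of at least 100 left 8066 probe sets to test and called 2472 higher and 2394 lower, and a pseudocount of 64 called 850 at least 2-fold higher and 832 lower. Leaving out each of the 6 arrays gave 3260 to 3598 higher and 3188 to 3364 lower, and at least 2-fold 1345 to 1391 higher and 1277 to 1380 lower. With the replicate block 3934 were called higher and 3705 lower, at least 2-fold 1365 and 1319. Same-numbered arrays of both groups had deviations that correlated at 0.097, 0.078 and 0.022, and the main fit used no pairing. However, 3 of 3 combined arrays correlated best with their own number, a hint from the data and not the design.

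Medians were followed only for lists with a large share of measured members called in the same direction. They moved by more than 1 SD between arrays as follows, with the main value in the report. The retrograde list had 5.11 with a pseudocount of 1 and 4.17 with 64. Chlorophyll synthesis had -0.86 with a pseudocount of 64, -1.63 with a mean value of at least 30 and -1.80 with at least 100. The plastid genome had -0.54 with a pseudocount of 64, -0.68 with median centring, -0.71 with a mean of at least 30 and -0.72 with at least 100. The mitochondrial genome had 0.62 with a pseudocount of 1, 0.20 with 64, 0.77 with a mean of at least 30, 0.71 with at least 100, and 0.30 to 0.45 when an array was left out, lowest without replicate 1 of the combined group. Glucosinolates had -0.74 with a pseudocount of 64. U-box ligases had 0.18 with a pseudocount of 64, 0.18 with median centring and 0.44 with a mean of at least 30. None of these medians changed sign. Among lists not followed here, medians close to 0 could change sign with median centring. That of the SWEET family went from 0.0061 to -0.0865, and that of branched-chain amino acid breakdown from 0.0745 to -0.0182. The pseudocount and the filter move dim members by construction, and other causes were not tested.

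Of 141 named genes called, 128 were called under every one of the 16 alternatives that held them. The other 13 lost the call under at least 1: ARR15, AT5G48570, ATGLR1.2, EIN3, FMA, Hsp70-2, MCCB, PPDK, SAG101, SDH1-1, SWEET4, TUA6 and TUB5. CLV3, uncalled and near the lower end of the scale, turned to -0.089 with median centring and was called there. psaC was high on 2 of 3 combined arrays. With intensities that dim, 5773 genes below 16 units in both groups, changes at the lower end of the scale could not be read.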

Other observations

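Outside the lists and the rule for named genes, 188 genes with a symbol were called higher and 182 lower, and those named here were picked from the 30 largest each way after their values were seen. Growth and hormone genes stood among the rises. ARL, a relative of the organ-size regulator ARGOS, had 1600.2, 1823 and 1754 units with both agents, against 65, 87.3 and 96.8 untreated (log2 change 4.15 ± 0.23). HAT2, an auxin-inducible homeodomain factor, had 1348, 1233 and 1264 units against 129, 141 and 124 (log2 change 3.14 ± 0.07), IAGLU, which glucosylates auxin, 235, 209 and 199.7 against 36.2, 50.4 and 56.9 (log2 change 1.86 ± 0.17) and GID1B, a gibberellin receptor, 148, 127 and 160.3 against 20.7, 16.1 and 17.7 (log2 change 2.23 ± 0.18). In each of these the groups did not overlap. UPB1, a bHLH factor that controls peroxidases in the root tip, had 108, 167 and 155 units against 43.5, 31.6 and 33.4 (log2 change 1.598 ± 0.29), and BIK1, a kinase of immune receptors, 596, 390.5 and 504 against 132, 107 and 129.8 (log2 change 1.87 ± 0.21).

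Chloroplast and photorespiration genes outside the gene lists stood among the falls. PSB27, an assembly factor of photosystem II, had 851, 774 and 774 units against 4016, 3939.8 and 3368 (log2 change -2.21 ± 0.14), NdhS of the chloroplast NADH dehydrogenase-like complex 281, 276 and 329 against 1163, 1320.1 and 1352 (log2 change -2.06 ± 0.17) and HPR, the hydroxypyruvate reductase of photorespiration, 1496.5, 1277 and 1408 against 5645, 5387 and 4635.5 (log2 change -1.89 ± 0.13). All combined arrays of these 3 lay below all untreated ones. TROL, a thylakoid anchor of ferredoxin-NADP reductase, averaged 381 ± 36.2 units against 1407 ± 24.3 (log2 change -1.84 ± 0.09), and CaS, the thylakoid calcium sensor, 1721 ± 135 against 5028 ± 395 (log2 change -1.54 ± 0.11). DFR, the dihydroflavonol reductase of anthocyanin synthesis, had 61.03, 59.2 and 83.95 units against 421, 848 and 1455 (log2 change -3.301 ± 0.43, adjusted p = 2.58e-04). THIC, which makes the pyrimidine of vitamin B1, averaged 403 ± 63.5 units against 1128 ± 106 (log2 change -1.46 ± 0.25).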
